A study of Mus musculus with 9 samples.

Results

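Expression of 10 genes for RNA-binding regulators of cytokine mRNA decay was examined in mouse bone marrow-derived macrophages (BMDMs). The genes were the tristetraprolin family members Zfp36, Zfp36l1 and Zfp36l2, the regnases Zc3h12a and Zc3h12c, the roquins Rc3h1 and Rc3h2, and Elavl1, Khsrp and Hnrnpd. They were chosen by name, and each was found by its Ensembl identifier as 1 row among the 55655 rows of both expression tables. BMDMs from wild type C57BL/6 mice of 6 to 8 weeks were grown from femur and tibia marrow for 7 days with 10 ng/mL M-CSF. In the M1 group, mature macrophages received lipopolysaccharide (LPS) and interferon-γ and were examined after 12 hours. The M1+PBM group received the same induction together with photobiomodulation (PBM), which is irradiation with red or near-infrared laser light. The M0 group consisted of macrophages that were not treated with PBM, and its labels give no induction time. The methods describe M0 macrophages as matured with M-CSF, and M1 macrophages as made from them with LPS and interferon-γ. The same treatment text, with LPS and interferon-γ, stands on all 9 samples including M0, so the M0 group was taken from titles and source names. Each group had 3 libraries of strand-specific bulk RNA-seq, in FPKM (fragments scaled to transcript length and library size), a level that can be compared between genes. The labels do not say whether replicates came from separate mice or cultures, so p-values measure only the spread between these libraries, which may be technical.

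Many cytokine mRNAs carry AU-rich elements or short stem-loops in the 3′ untranslated region (UTR), and proteins that bind these elements set how long the mRNA lasts. Tristetraprolin and its relatives bind the core UAUUUAU and bring the CCR4-NOT complex, which removes the poly(A) tail. Regnase-1 (Zc3h12a) cuts mRNAs with its own nuclease domain at stem-loops with a pyrimidine-purine-pyrimidine loop, and roquins recognise similar stem-loops and recruit deadenylases. HuR (Elavl1) binds AU-rich and U-rich stretches and mostly stabilises its targets, KSRP (Khsrp) promotes decay, and AUF1 (Hnrnpd) can do either. In activated macrophages several of these regulators are themselves induced by LPS and restrain Tnf, Il6 and other inflammatory mRNAs.

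To show what the regulators bind, the stretch of 30 bases with the most UAUUUAU heptamers is given for 7 target mRNAs measured in these libraries. The heptamers are in capitals, overlapping copies were counted, and the sequences are the sense strand of GENCODE release M21 transcripts, 5′ to 3′. Tnf carried 8 copies in a 3′ UTR of 764 bases, of which 5 stood between bases 438 and 467. Il6 carried 1 copy.
Tnf: uUAUUUAUUAUUUAUUUAUUAUUUAUUUAU
Il6: auuuaugauugaUAUUUAUuauuuuuauga
Il1b: cuuaccUAUUUAUUUAUgUAUUUAUugauu
Ptgs2: acugaccaUAUUUAUUUAUUUAUgugaaga
Cxcl1: guccUAUUUAUUUAUgUAUUUAUUUAUucc
Cxcl2: cuUAUUUAUUUAUcuaugUAUUUAUUUAUu
Il10: cucucuccgaaaUAUUUAUuaccucugaua

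The mRNAs of the tristetraprolin family held the heptamer too, with 3 copies each in Zfp36, Zfp36l1 and Zfp36l2. The windows below are bases 571 to 600 of 774 in Zfp36, 1138 to 1167 of 1835 in Zfp36l1 and 810 to 839 of 1822 in Zfp36l2.
Zfp36: ccuuUAUUUAUgacgacuuUAUUUAUugua
Zfp36l1: cuuaucaaaacgUAUUUAUugccaaacuau
Zfp36l2: aacuauuuaacuUAUUUAUuaucuugugaa
Among the 10 regulators, 7 had 2 or more heptamers, with 8 in Elavl1, and Zc3h12a, Khsrp and Hnrnpd had 0. Of all 20658 coding genes with an annotated 3′ UTR, 25.4% had at least 1 copy and 9.24% had at least 2. UTR length differs with these counts, since the median 3′ UTR was 2628 bases in the regulators and 797 bases in all coding genes. Of the 42 cytokine and stress mRNAs listed as targets, 29 had at least 1 copy and 22 had at least 2, with a median 3′ UTR of 632.5 bases.

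Stem-loops were searched as 5 Watson-Crick pairs closing a loop of 3 bases that is pyrimidine, purine, pyrimidine, with the loop in capitals below. Of all coding genes 19.2% held at least 1 match, against 14 of the 42 targets and 5 of the 10 regulators. Zc3h12a, without a heptamer, held 3 matches in 856 bases, of which those at bases 379 to 391 and 197 to 209 are shown with the ones of Tnf (547 to 559) and Il1a (53 to 65). A match is a description of the letters, and a missing match says only that they do not occur in the annotated UTR.
Zc3h12a first: ggcacCAUgugcc
Zc3h12a second: auacaCAUuguau
Tnf: uuuucUGUgaaaa
Il1a: uguacCAUguaca

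All libraries had high levels of macrophage markers, with a summed FPKM of 9 macrophage genes between 5501 and 10344, and the summed FPKM of 5 M1 markers was 12.2 to 66.8 in M0, 391 to 729 in M1 and 329 to 375 in M1+PBM. Of 8 neutrophil markers, S100a9 and Ly6g were at 0 in all libraries and the summed level was 13.2 to 26.5 in M0, 111 to 163 in M1 and 104 to 108 in M1+PBM. Flt3 among 6 dendritic cell markers was at 0 in all 9 libraries. The dendritic sum was at most 1.23 and the sum of 7 lymphoid markers at most 0.504. A pair of libraries stood apart. In M0 replicate 3 the 6 stromal markers summed to 187, with Col1a1 at 123, and Tnf was 233 FPKM against 16.9 and 14.9 in the other M0 libraries. The stromal sum reached 14.4 at most in M1 and 27.2 in M1+PBM. In M1 replicate 2 albumin (Alb) was 9.01 FPKM and was listed at 0 in the other 8 libraries, while the 8 hepatocyte markers, dominated by Trf, summed to 63.0 to 259 in M0, 30.7 to 109 in M1 and 41.7 to 73.2 in M1+PBM. Their part in the results was not tested. Values without them are given for several results, but the gene lists below were not compared with M0 without M0 replicate 3. Estimated depth was 30940000 to 42220000 fragments per library, and all 10 regulators were well covered except Zfp36l1, with 57.3 to 1742 fragments as an upper estimate.

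The first question was how the regulators stood in resting and in activated macrophages. The make-up of the tristetraprolin family differed. Zfp36l2 and Zfp36l1 were lower in M1 than in M0 in every library, Zfp36 had the higher mean in M1, and both regnases were higher in every M1 library. The roquin Rc3h1 and Khsrp were lower, and Elavl1, Hnrnpd and Rc3h2 overlapped between M0 and M1. M0 stands in a table of its own and may have been normalised apart from the other groups. It therefore entered no test, and these values are descriptions. The median row was 0.34 lower on the log2 scale in M1 than in M0 (−0.338, or −0.0778 after median-of-ratios scaling), and small differences have to be read against that shift. In bulk RNA, fewer cells of a type and less RNA per cell cannot be told apart.

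**Figure D1:**
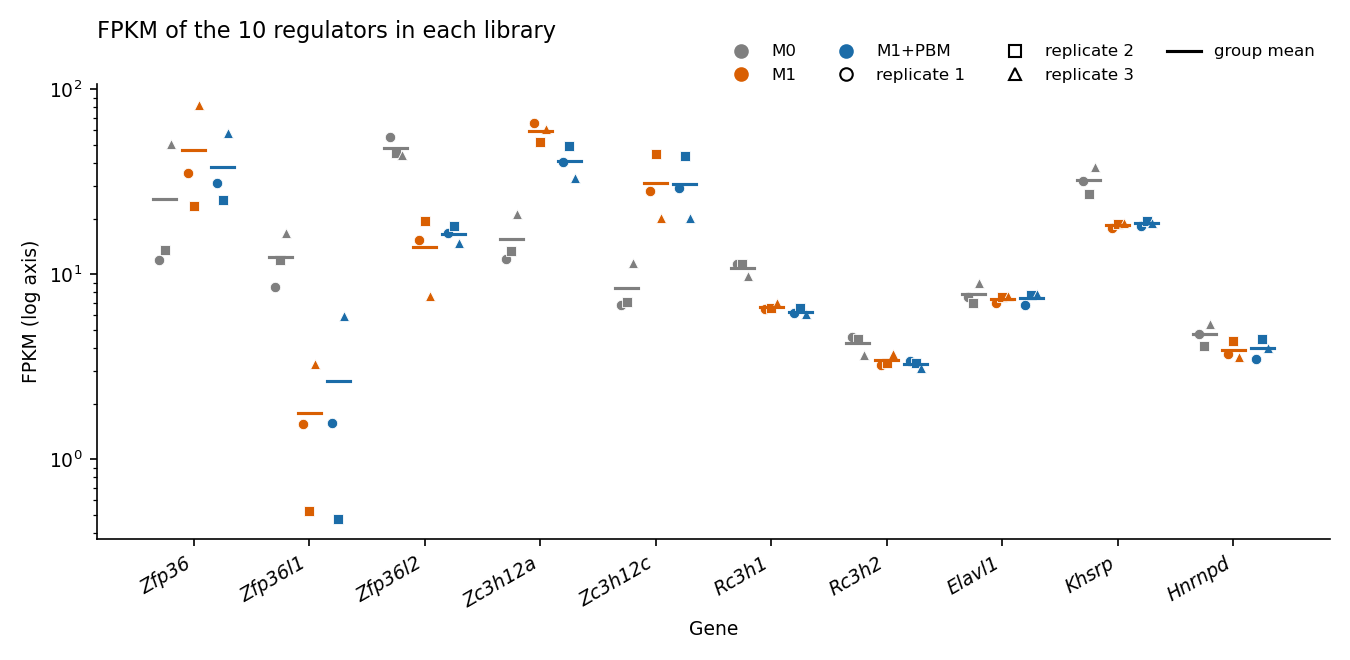
FPKM (log axis) of the 10 regulators in the 3 libraries of each group (circle, square and triangle for replicates 1, 2 and 3; bar, group mean). Zfp36l1 and Zfp36l2 lie lower and Zc3h12a and Zc3h12c higher in M1 and M1+PBM than in M0, while Zfp36 overlaps between groups, with M0 replicate 3 at 50.9.

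Zfp36 (ENSMUSG00000044786), the gene of tristetraprolin, had 12.0, 13.6 and 50.9 FPKM in M0 replicates 1, 2 and 3, 35.2, 23.3 and 82.6 in M1, and 31.1, 25.3 and 58.0 in M1+PBM. In each group replicate 3 was the highest library, and the groups overlapped through M0 replicate 3. The mean log2 difference, on log2(FPKM + 1), was 0.97 for M1 against M0 and 0.78 for M1+PBM against M0. Without M0 replicate 3 it was 1.61 and 1.42, and M0 no longer overlapped with either group. The difference of M1 was 0.61 without M0 replicate 1 and 0.47 without M1 replicate 3, and that of M1+PBM was 0.42 without M0 replicate 1, 0.50 without M0 replicate 2 and 0.44 without M1+PBM replicate 3. Gm44710, antisense to Zfp36, had at most 1.27 FPKM.

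Zfp36l1 (ENSMUSG00000021127), a relative with the same zinc finger pair, had 8.51, 11.9 and 16.8 FPKM in M0, 1.55, 0.525 and 3.27 in M1, and 1.57, 0.479 and 5.96 in M1+PBM. Its mean was the lowest of the 10 regulators in both activated groups, although M1+PBM replicate 3 was above Rc3h2 and Hnrnpd of that library, and it lay below every M0 library there. Its log2 difference from M0 was −2.35 in M1 and −2.12 in M1+PBM, and with a pseudocount of 0.1 the former was −2.99. The opposite strand carries Gm26669, which shares 1491 bases with Zfp36l1, and the pseudogene Zfp36l1-ps, 94.7% alike over 903 bases, was at most 0.0106 FPKM. Whether counting used the strand is not given in the sources used here, so reads of overlapping antisense genes cannot be told apart from those of the regulator.

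Zfp36l2 (ENSMUSG00000045817), the third relative, had the highest mean of the regulators in M0, with 55.3, 45.2 and 44.0 FPKM, while Zfp36 was above it in M0 replicate 3. It had 15.3, 19.4 and 7.62 FPKM in M1 and 16.8, 18.2 and 14.8 in M1+PBM, below all M0 libraries. The log2 differences were −1.79 and −1.48. Its antisense gene AC132455.1 was at most 1.76 FPKM.

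As a share of the summed FPKM of the 3 family genes, Zfp36 made up 15.8%, 19.2% and 45.6% in M0, 67.6%, 54.0% and 88.3% in M1, and 62.9%, 57.5% and 73.7% in M1+PBM. Every activated library had a higher Zfp36 share than every M0 library. Zfp36l2 made up 58.8% ± 17.4 (SD, n = 3) in M0 and 27.4% ± 18.4 in M1, and Zfp36l1 14.4% ± 2.89 and 2.56% ± 1.20. Between M1 and M1+PBM the Zfp36 share was 70.0% ± 17.3 and 64.7% ± 8.21 (exact two-sided permutation test, p = 0.7, n = 3 each), a difference of −5.30 percentage points. Leaving out M1 replicate 3 turned it to 3.88, and leaving out M1 replicate 2 gave −13.3. Among the M1+PBM libraries, omission of replicate 2 gave −1.71 and that of replicate 3 gave −9.78. The smallest p that 3 against 3 libraries allow is 0.1.

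**Figure D2:**
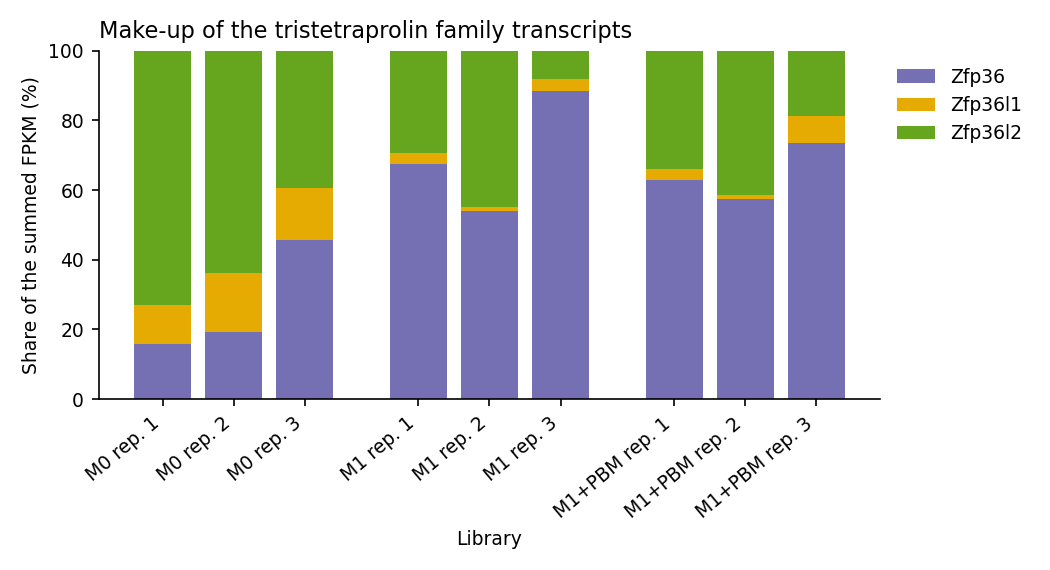
Share (%) of Zfp36, Zfp36l1 and Zfp36l2 in the summed FPKM of the 3 genes, 1 bar per library. Zfp36 takes 15.8% to 45.6% in M0 and 54.0% to 88.3% in M1, and Zfp36l2 is the largest part in M0 replicates 1 and 2 (73.0% and 63.9%).

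Zc3h12a (ENSMUSG00000042677), which encodes the endonuclease regnase-1, had 12.1, 13.4 and 21.3 FPKM in M0 and 65.5, 52.1 and 61.4 in M1. In M1 it was the regulator with the highest mean, 59.7 ± 6.88 (SD, n = 3), although its range overlapped that of Zfp36. In M1+PBM it had 40.5, 49.7 and 33.3 FPKM, between the other groups. The log2 difference from M0 was 1.91 in M1 and 1.37 in M1+PBM.

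Zc3h12c (ENSMUSG00000035164), a regnase of the same family, had 6.81, 7.08 and 11.6 FPKM in M0, 28.4, 44.6 and 20.1 in M1, and 29.2, 43.4 and 20.1 in M1+PBM. Every activated library was above every M0 library, by 1.72 on the log2 scale in both groups. Zc3h12a made up 64.7% ± 0.745 (SD, n = 3) of the summed FPKM of both regnases in M0, 66.3% ± 11.1 in M1 and 57.9% ± 4.49 in M1+PBM. The last 2 values did not differ beyond the spread (exact two-sided permutation test, p = 0.3, n = 3 each).

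Rc3h1 (ENSMUSG00000040423), which encodes roquin-1, had 11.4, 11.3 and 9.80 FPKM in M0, 6.52, 6.58 and 6.98 in M1, and 6.16, 6.56 and 6.13 in M1+PBM. It was below M0 in every activated library, by −0.62 and −0.70, and by −0.31 and −0.46 after median-of-ratios scaling. Gm37052, Gm37653 and Gm37809, with at most 2.74, 2.09 and 2.18 FPKM, overlap it on the same strand. Their reads may not be separable from those of Rc3h1. Rc3h2 (ENSMUSG00000075376), its paralog, had 4.60, 4.46 and 3.68 FPKM in M0, 3.25, 3.34 and 3.71 in M1, and 3.40, 3.34 and 3.10 in M1+PBM. M0 and M1 overlapped by a narrow margin, and the difference of −0.24 became 0.03 after scaling.

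Khsrp (ENSMUSG00000007670), the gene of the decay factor KSRP, had 32.0, 27.2 and 37.8 FPKM in M0, 17.8, 18.7 and 19.0 in M1, and 18.2, 19.4 and 19.0 in M1+PBM. It was lower than M0 in all activated libraries, with differences of −0.76 and −0.74 that were −0.43 and −0.48 after scaling. A similar row, Gm8602, 96.4% alike over 608 bases, was at most 0.0418 FPKM.

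Elavl1 (ENSMUSG00000040028), the gene of HuR, was nearly level, with 7.56, 7.03 and 8.97 FPKM in M0, 6.97, 7.50 and 7.68 in M1, and 6.82, 7.77 and 7.85 in M1+PBM. The groups overlapped, and the difference of M1 from M0 was −0.07, or 0.23 after scaling. Ccl25 overlaps Elavl1 on the opposite strand and had at most 2.31 FPKM. Hnrnpd (ENSMUSG00000000568), the gene of AUF1, had 4.74, 4.09 and 5.42 FPKM in M0, 3.73, 4.38 and 3.56 in M1, and 3.49, 4.48 and 3.997 in M1+PBM. Its difference of −0.23 turned to 0.05 after scaling. The antisense gene Gm17092 overlaps Hnrnpd and had 0.650 to 1.67 FPKM in the 9 libraries.

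Counted by groups that do not overlap and differ by at least 1 log2 unit, 2 regulators were higher in M1 (Zc3h12a and Zc3h12c) and 2 were lower (Zfp36l1 and Zfp36l2). Of all 13915 rows expressed in at least 3 libraries, 7.81% were higher and 13.7% were lower by the same rule. The same 4 genes passed in M1+PBM against M0, where the shares of all rows were 7.13% and 10.3%. Both comparisons share the M0 libraries. Without M0 replicate 3, Zfp36 also passed, which made 5 regulators in each comparison.

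**Figure D3:**
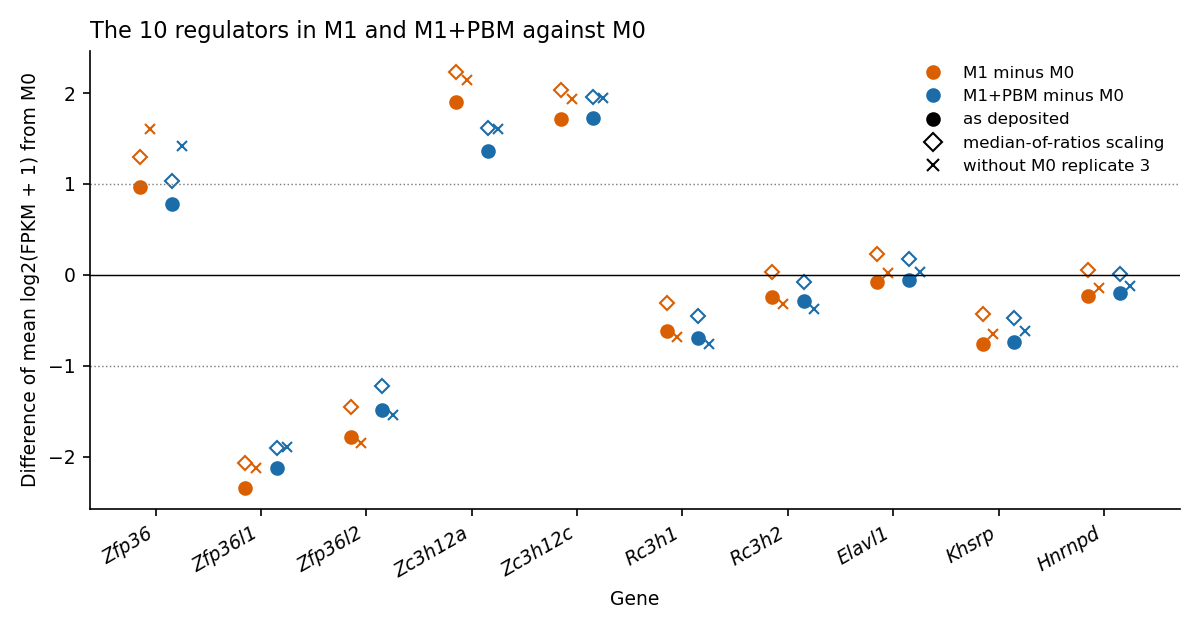
Difference in mean log2(FPKM + 1) of M1 (orange) and M1+PBM (blue) from M0 for the 10 regulators, as deposited (filled circles), after median-of-ratios scaling (diamonds) and without M0 replicate 3 (crosses); dotted lines mark 1 log2 unit. Zfp36l1, Zfp36l2, Zc3h12a and Zc3h12c lie past 1 unit in all 3 versions, and Rc3h2, Elavl1 and Hnrnpd lie near 0 and change sign in M1 with the scaling.

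The order of levels differed between the groups. In M0 it was led by Zfp36l2 (48.2 FPKM), which stood apart from Khsrp (32.4), and neighbours from Khsrp down to Elavl1 overlapped. In M1 the first 3 places were taken by Zc3h12a (59.7), Zfp36 (47.1) and Zc3h12c (31.0), of which neighbours overlapped, and Zc3h12c stood apart from Khsrp (18.5). M1+PBM had the same order of all 10 as M1, with Zfp36l1 again last at 2.67 ± 2.90 FPKM (SD, n = 3).

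The main comparison asked whether PBM altered these regulators in M1 macrophages. Zc3h12a was lower in every M1+PBM library than in every M1 library, and the other 9 regulators overlapped between the groups. None passed the adjusted test in limma. Zc3h12a differed by −0.54 ± 0.17 on the log2 scale (SE, n = 3 each, 95% interval −0.95 to −0.13; limma, unadjusted p = 0.0179, Benjamini-Hochberg adjusted p = 0.90). The exact two-sided permutation test gave p = 0.1, the smallest possible. The differences between libraries of the same replicate number were −0.68, −0.07 and −0.87, so that replicate 2 showed almost none. The unadjusted p was 0.0626 without M1 replicate 1, with a difference of −0.47, and at most 0.05 with every other alternative.

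Of the 10 regulators 6 were higher and 4 lower, with a median log2 difference of 0.01 against 0.06 for all 12238 rows tested. Of all these rows 8026 were higher and 4212 lower, and the counts of the lists below are to be read beside that split. An unadjusted p of at most 0.05 was reached by 1 regulator, against 4.44% of all rows (limma; 543 rows, or 988 when the replicate block was fitted). Leaving out 1 library gave 259 rows (without M1+PBM replicate 1) to 1089 rows (without M1 replicate 2), with 312 without M1 replicate 1, 342 without M1+PBM replicate 3 and 930 without M1+PBM replicate 2. Split by direction, 1.45% of all rows were lower and 2.99% higher, 177 and 366 rows, and with median-of-ratios scaling the split was 276 lower and 251 higher. With M1 replicate 2 left out it was 326 lower and 763 higher, and with M1+PBM replicate 1 left out 106 lower and 153 higher. By groups that do not overlap, 1 regulator was lower and 0 were higher, while 2.52% of all rows were lower and 8.51% higher. None of the regulators had an unadjusted p of at most 0.05 with a difference of at least 1 log2 unit, which 0.261% of all rows had, and none had an adjusted p under 0.05, reached by 0.00817% of all rows (1 row). The adjusted p of the regulators ranged from 0.90 to 0.999 in limma.

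**Figure D4:**
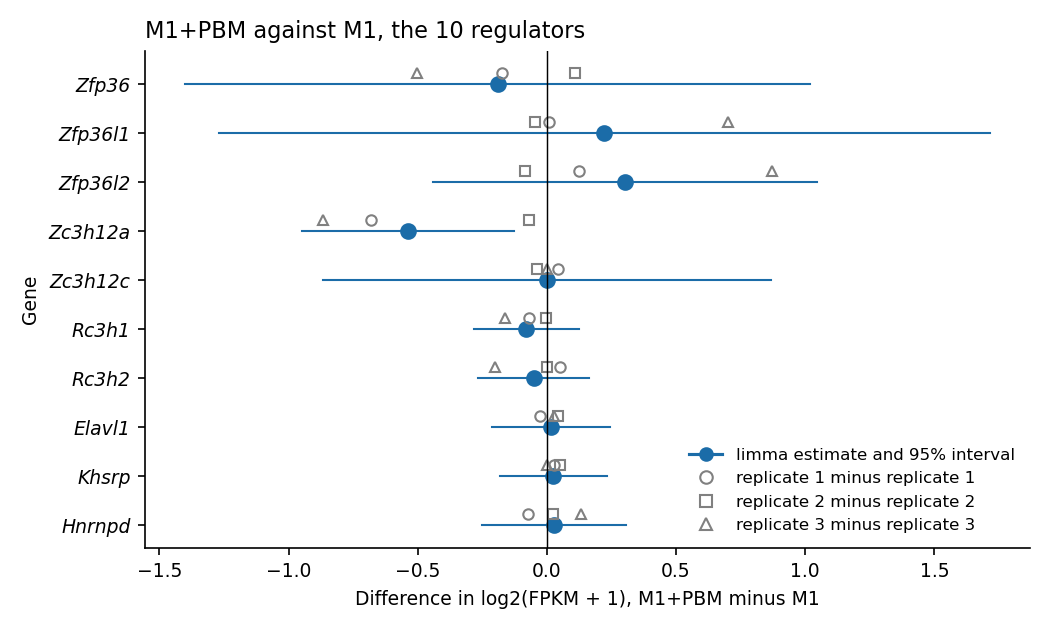
Difference in log2(FPKM + 1) of M1+PBM from M1 for the 10 regulators (blue, limma estimate with its 95% interval; open symbols, libraries of the same replicate number subtracted from each other). The interval of Zc3h12a runs from −0.95 to −0.13, and the other 9 intervals include 0.

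The widths of the intervals differed greatly among the regulators. They were widest for the tristetraprolin family and Zc3h12c. Zfp36 differed by −0.19 (95% interval −1.40 to 1.02), Zfp36l1 by 0.22 (−1.27 to 1.71) and Zfp36l2 by 0.30 (−0.44 to 1.05). All 3 intervals include a difference of 1 log2 unit. With the replicate block, which takes libraries of equal number as pairs, they were narrower, from −0.54 to 0.16 for Zfp36, −0.24 to 0.69 for Zfp36l1 and −0.23 to 0.83 for Zfp36l2, and 1 log2 unit lay outside all 3. That pairing was read from these same data and is not given by the labels. Leaving out M1 replicate 3, which had the highest Zfp36 and the lowest Zfp36l2 of its group, turned the Zfp36 difference to 0.31 and that of Zfp36l2 to −0.06. Without M1 replicate 2, the library with albumin, the differences were −0.58 for Zfp36, −0.15 for Zfp36l1 and 0.56 for Zfp36l2.

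Zc3h12c differed by 0.00 (95% interval −0.87 to 0.87, or −0.19 to 0.19 with the block), and its library pairs of equal number differed by 0.04, −0.04 and 0.00. For the remaining 5 the intervals were narrow. They were −0.28 to 0.12 for Rc3h1, −0.27 to 0.16 for Rc3h2, −0.21 to 0.24 for Elavl1, −0.18 to 0.23 for Khsrp and −0.25 to 0.31 for Hnrnpd, so that a difference of 1 log2 unit lay outside all 5. With Zfp36, Zfp36l1, Zfp36l2, Zc3h12c and Elavl1, the 3 libraries stood in the same order of level in M1 and in M1+PBM. Same-numbered libraries deviated together over all tested rows too (r = 0.157, 0.469 and 0.462). The share of all rows with the same order was not computed, so the order is not a trait of these genes alone.

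Genes with the most similar profile over the 6 libraries of M1 and M1+PBM were sought among 5682 rows with a mean of at least 5 FPKM, by the root mean square (RMS) difference of centred log2(FPKM + 1). For Zfp36 they were Glipr2 (0.10), Rin2 (0.13) and Scimp (0.14), against an RMS of 0.64 for Zfp36 about its own mean. Glipr2 had 14.1, 10.7 and 34.2 FPKM in M1 and 12.5, 9.01 and 24.96 in M1+PBM, again highest in replicate 3 of each group.

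For Zc3h12a they were Ifrd1 (0.08), Tank (0.09) and Ppp1r15a (0.10), against 0.33 for the gene itself. Tank, a regulator of TRAF signalling, had 19.5, 15.8 and 18.2 FPKM in M1 and 13.8, 16.7 and 10.5 in M1+PBM, and Ppp1r15a, a phosphatase subunit of the stress response, had 13.0, 11.8 and 12.6 and then 8.40, 12.2 and 6.82. For Zfp36l1 the nearest was the interleukin-4 receptor gene Il4ra (0.11, against 0.79 for Zfp36l1), with 55.4, 35.6 and 119 FPKM in M1 and 62.0, 32.7 and 162 in M1+PBM. Hip1 and Ifitm6 followed at 0.21 and 0.22. These are descriptions over 6 libraries and were not tested.

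The mRNAs that the regulators are known to bind were examined next. Of 42 listed cytokine and stress mRNA targets 36 were tested between M1+PBM and M1, and 33 of them were lower and 3 higher. Their median log2 difference was −0.68, against 0.06 for all rows. An unadjusted p of at most 0.05 was reached by 13, all lower, and 11 of these were also past 1 log2 unit (limma), while no target had an adjusted p under 0.05. The count of 13 was 9 to 17 when single libraries were left out, with 9 without M1 replicate 1 and M1+PBM replicates 1 or 3. Of the 12238 rows tested, 29 were lower by both thresholds, and the targets were 11 of these. Several targets were known from earlier results of these data to be lower, so the list is not independent evidence of its direction.

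Il6, the cytokine interleukin-6, had 21.7, 14.9 and 25.3 FPKM in M1 and 3.40, 7.30 and 1.20 in M1+PBM. The groups did not overlap and the difference was −2.29 ± 0.47 (SE, n = 3 each; limma, unadjusted p = 0.00231, adjusted p = 0.90). Ptgs2, the gene of cyclooxygenase-2, had 175, 94.9 and 248 FPKM in M1 and 33.7, 79.1 and 15.9 in M1+PBM, a difference of −2.16 ± 0.61 (limma, unadjusted p = 0.0104). Its replicate 2 libraries differed by only −0.26.

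The neutrophil chemokines Cxcl1 and Cxcl2, which carry 6 and 7 heptamers, were also lower without overlap. Cxcl2 had 162, 83.6 and 61.1 FPKM in M1 and 23.2, 51.0 and 10.5 in M1+PBM (−1.96 ± 0.60; limma, unadjusted p = 0.0149). Cxcl1 had 23.4, 6.23 and 6.90 and then 3.02, 3.53 and 1.43 (−1.66 ± 0.50; limma, unadjusted p = 0.0144), and differed by −1.10 without M1 replicate 1.

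Il1a, interleukin-1α, had 583, 680 and 354 FPKM in M1 and 196, 235 and 81.0 in M1+PBM (−1.74 ± 0.44; limma, unadjusted p = 0.00659), with like differences in all 3 numbered pairs. Il1b, interleukin-1β, had 826, 1077 and 844 FPKM and then 409, 629 and 316 (−1.07 ± 0.26; limma, unadjusted p = 0.00584). Both were lower in every M1+PBM library.

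Tnf, the classical target of tristetraprolin, had 375, 443 and 295 FPKM in M1 and 221, 417 and 106 in M1+PBM. The groups overlapped and the difference was −0.77 ± 0.47 (limma, unadjusted p = 0.151, and 0.0364 with the replicate block). Without M1+PBM replicate 2 it was −1.25, with an unadjusted p of 0.0125 in limma, and without M1+PBM replicate 3 it was −0.27, with an unadjusted p of 0.434. Il10, an anti-inflammatory cytokine with 4 heptamers, had 15.5, 5.36 and 38.2 FPKM and then 7.45, 3.67 and 7.73 (−1.19 ± 0.64; limma, unadjusted p = 0.11, and 0.0184 with the block), and it differed by −1.86 without M1 replicate 2 (unadjusted p = 0.00762 in limma) and by −0.55 without M1 replicate 3 (0.305). The 3 targets with positive differences, named after their values were seen, were Ccnd1 (0.88), Fos (0.41) and Hmox1 (0.10).

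**Figure D5:**
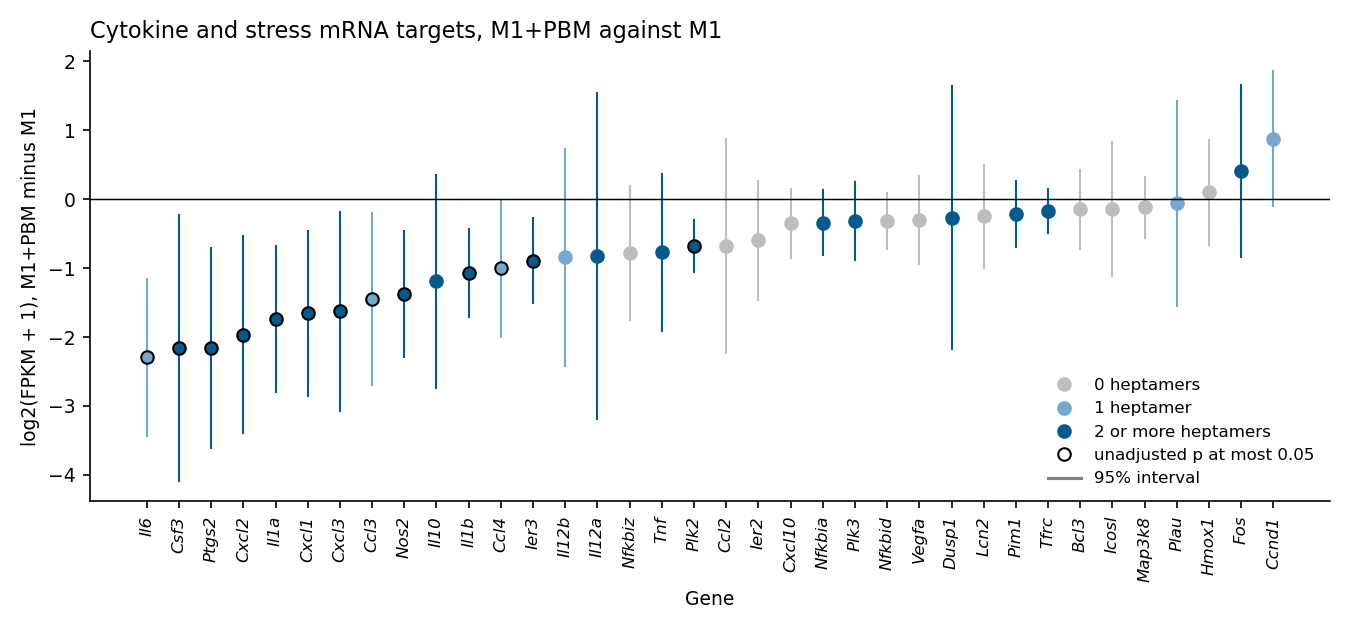
Difference in log2(FPKM + 1) of M1+PBM from M1 for the 36 tested targets in order of size, with 95% intervals from limma; colour gives the number of heptamers in the 3′ UTR and a black ring an unadjusted p of at most 0.05. Of the 13 ringed genes, all lower, 10 have 2 or more heptamers, 3 have 1 and none has 0.

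Sequence class was then compared over all genes. Of 9064 tested genes with a 3′ UTR, 806 had 2 or more heptamers, 1655 had 1 and 6603 had 0, and their median log2 differences were 0.04, 0.06 and 0.07. The shares that were lower at an unadjusted p of at most 0.05 in limma were 3.35% (27 genes), 1.45% (24) and 1.08% (71). Genes higher at that threshold numbered 23, 47 and 184. With the replicate block the first and last counts of lower genes were 42 and 167, and with median-of-ratios scaling the class without heptamers had 115. The 27 lower genes with 2 or more heptamers included 10 of the listed targets. Without listed targets the shares of lower genes were 2.16%, 1.27% and 1.08%. The median 3′ UTR was 2717 bases with 2 or more heptamers and 681 bases with 0, so UTR length moves with the class and its part was not tested. The median level differed as well, 2.42 and 2.78 on log2(FPKM + 1), and its part was not tested either.

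Of the targets, those with 2 or more heptamers had a median difference of −0.89 (19 genes), those with 1 had −0.92 (6 genes) and those with 0 had −0.30 (11 genes). Against M0, 22 of 37 targets expressed in at least 3 libraries were higher in M1 without overlap by at least 1 log2 unit and 6 were lower. In M1+PBM the counts were 17 and 6. Tnf was counted as higher in M1 but not in M1+PBM, where it overlapped M0 replicate 3. These counts were not repeated without that library. The median differences from M0 were 2.42 and 1.64, on tables that may have been normalised separately.

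The enzymes that carry out decay lay near the median of all rows between M1+PBM and M1. Of 20 genes of the CCR4-NOT, PAN2-PAN3 and related deadenylation list, 13 were higher and 7 lower, none at an unadjusted p of at most 0.05 in limma, with a median of 0.03 and a range from −0.15 to 0.18. Cnot1, the scaffold to which tristetraprolin binds, had 8.95, 9.44 and 10.0 FPKM in M1 and 9.91, 9.50 and 10.8 in M1+PBM, a difference of 0.08 (95% interval −0.15 to 0.30). Of 31 decapping and exonuclease genes 30 were tested, 22 higher and 8 lower, again with none at an unadjusted p of at most 0.05 in limma, and the median was 0.07. An adjusted p under 0.05 was reached by 0 genes of both lists.

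Against M0, 19 of the 20 deadenylation genes had lower means in M1, with a median of −0.41 beside the −0.34 of all rows. The 3 genes below M0 without overlap and by at least 1 log2 unit, named after their values were seen, were Pabpc4 (−1.42), Cnot6l (−1.07) and Tob1 (−1.01), which encode a poly(A)-binding protein, a deadenylase subunit and an adaptor of the complex. By the same rule 13.7% of all rows were lower, so that 3 of 20 is near the background, and in M1+PBM only Pabpc4 passed (−1.50). In the decapping and exonuclease list it was only Lsm2 (−1.14) of 31 genes in M1, and 0 genes in M1+PBM.

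Regulators of the proteins were examined as well. Of 17 listed genes 16 were tested, 6 higher and 10 lower, and 1 of each direction had an unadjusted p of at most 0.05. Of all rows, 1.45% were lower and 2.99% higher at that threshold. Mapk14, the p38α kinase upstream of tristetraprolin phosphorylation, had 12.9, 14.4 and 8.09 FPKM in M1 and 17.9, 17.2 and 15.6 in M1+PBM, a difference of 0.52 ± 0.21 (SE, n = 3 each; limma, unadjusted p = 0.0431, adjusted p = 0.90). That p was above 0.05 when M1 replicate 1 or any M1+PBM library was left out, up to 0.112, and was 0.0504 with no minimum FPKM. Mapkapk3, a kinase activated by p38, had 7.88, 7.09 and 8.36 FPKM and then 6.02, 6.39 and 6.20 (−0.28 ± 0.09; limma, unadjusted p = 0.0214), and its p was above 0.05 without M1 replicate 1 (0.0666), M1+PBM replicate 1 (0.075) or M1+PBM replicate 3 (0.0501).

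Mapkapk2, the MK2 kinase that phosphorylates tristetraprolin, was higher in activated cells, with 60.6, 57.5 and 95.6 FPKM in M0, 162, 198 and 156 in M1 and 153, 200 and 116 in M1+PBM. M1 and M1+PBM overlapped, with a difference of −0.16 ± 0.21. Malt1, the protease that cleaves regnase-1 and roquins, had 5.78, 4.19 and 3.11 FPKM in M0, 31.7, 42.1 and 22.4 in M1, and 22.5, 36.1 and 7.13 in M1+PBM. Its difference between the last groups was −0.74 ± 0.55 (limma, unadjusted p = 0.227, and 0.0426 with the replicate block, with which 2 genes of the list were lower). It was −1.21 without M1+PBM replicate 2 and −0.12 without M1+PBM replicate 3. Dusp1, the phosphatase that switches off p38 and itself has 3 heptamers, had 20.6, 11.4 and 92.5 FPKM in M1 and 20.4, 13.3 and 46.2 in M1+PBM, and was highest in replicate 3 of both groups as Zfp36 was.

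Among 39 paralogs and other 3′ UTR binders 30 were tested, 20 higher and 10 lower, with a median of 0.06. Only Tial1, the translational repressor TIAR, had an unadjusted p of at most 0.05 in limma, 1 of 30 genes beside 4.44% of all rows. By groups that do not overlap, 5 of the 30 were higher and 0 lower, beside 8.51% and 2.52% of all rows. Tial1 had 3.31, 3.46 and 2.97 FPKM in M1 and 4.29, 3.96 and 4.56 in M1+PBM (0.31 ± 0.10; limma, unadjusted p = 0.0156, adjusted p = 0.90). That p was 0.0501 without M1+PBM replicate 1 and 0.0517 without M1+PBM replicate 3, and with the block a second gene of the list was higher at 0.05.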

How the data were processed

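M0 and the other 6 libraries stand in separate tables of 55655 rows, in FPKM as the authors deposited them. The methods name Cufflinks for expression values, and the submitters' processing notes list Bowtie 0.12.2 and the build mm9 without a role. Because the reference used here was GENCODE release M21 on another build, no coordinates are printed, and symbols (55154 rows) and transcripts were matched by Ensembl identifier. From 26.6% to 27.5% of low values lay within 0.05 of whole fragments, where even spread gives 10%, so counts were not recovered and depth is an estimate. The 12238 rows that reached 1 FPKM in 3 or more of the M1 and M1+PBM libraries were fitted as log2(FPKM + 1) with limma 3.58.1 (trend) in R 4.3.3, with Benjamini-Hochberg adjustment over all of them. A fold on this scale understates changes of low genes. Exact permutation tests used scipy 1.17.1, and the fit was tested on simulated data.

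Same-numbered M1 and M1+PBM libraries deviated together (r = 0.157, 0.469 and 0.462, against −0.491 to 0.0328 for different numbers). The numbers were therefore taken as pairs in the replicate block, an alternative fit. The labels give no pairing, and these r values come from the same data as the fit. Deviations sum to 0 within a group, so positive values for equal numbers bring lower ones elsewhere. Results with the block rest on that pairing, which was not tested apart from these data. With M0, rows that reached 1 FPKM in 3 or more of the 9 libraries were described (13915). Members and lists were chosen with earlier results of these data known. Named genes were the members, per list the up to 5 genes with the largest difference in each direction among those with an unadjusted p of at most 0.05 and no overlap, and Tnf, Il6, Il1b, Ptgs2, Cxcl1, Cxcl2, Il10, Dusp1, Mapk14, Mapkapk2, Malt1 and Cnot1. The stem-loop search, the alternatives for single list genes and for heptamer and target counts, and the comparison of heptamer classes without listed targets were added after the data were seen. The UTR of the transcript with the longest coding sequence was used. Other pseudocounts, filters, scalings, the fit without trend and leaving out each library were tried.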

Additional observations from a re-analysis of the deposited data

How the results depend on the processing

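Of 127 alternatives for the 10 regulators between M1+PBM and M1, 105 kept direction and side of the threshold, 21 reversed the sign of a difference, none of which had passed the threshold, and 1 lost the unadjusted p of Zc3h12a. The number of rows past both thresholds was 32, and 75 with a pseudocount of 0.1. With median-of-ratios scaling the log2 differences were −0.065 for Zc3h12c, −0.047 for Elavl1, −0.041 for Khsrp and −0.028 for Hnrnpd, and the medians were −0.019 for deadenylation genes, −0.11 for regulators of the proteins, −0.0083 for other binders and −0.0081 for genes with 2 or more heptamers. With quantile normalization they were −0.0065 for Zc3h12c, −0.029 for Elavl1 and −0.031 for Hnrnpd, with medians of −0.028 for deadenylation genes and −0.0011 for genes with 2 or more heptamers. These scalings move the median of all rows. The target median was −0.34 with no minimum FPKM, and the decapping median −0.0060 with a mean of at least 5 FPKM. The lower genes with 2 or more heptamers numbered 42 with the replicate block. Those with 0 heptamers numbered 115 with median-of-ratios scaling, 151 with no minimum FPKM and 167 with the replicate block. The block left the count of regulators at an unadjusted p of at most 0.05 at 1. The cause of these shifts was not tested.

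Leaving out single libraries gave 27 to 89 rows past both thresholds, 89 being without M1+PBM replicate 2 and 69 without M1 replicate 2, and 0 to 1 regulators at an unadjusted p of at most 0.05. Medians ran from −0.0063 to 0.077 for deadenylation genes and from −0.083 to 0.030 for regulators of the proteins. Lower genes numbered 16 to 36 with 2 or more heptamers and 46 to 136 with 0, the 136 being without M1 replicate 2. Differences ran from −0.58 to 0.31 for Zfp36, −0.39 to 0.73 for Zfp36l1, −0.057 to 0.56 for Zfp36l2, −0.27 to 0.29 for Zc3h12c, −0.021 to 0.072 for Elavl1, −0.00011 to 0.051 for Khsrp, −0.042 to 0.10 for Hnrnpd, −0.89 to 0.57 for Dusp1 and −0.35 to 0.035 for Mapkapk2. Counts were not used here, so what depth limits is known only through the estimated fragments, fewest for Zfp36l1.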

Other observations

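A pair of paralogs and binders that act with the regulators, named here after their values were seen, stood high in activated cells. By no overlap and at least 1 log2 unit, they were the 2 of 30 expressed genes of that list higher in M1 than in M0. That is near the 7.81% of all rows, and 23 of the 30 had lower means in M1. In M1+PBM 3 passed, with Igf2bp2 (1.01) added, against 7.13% of all rows. N4bp1, a relative of the regnases, had 4.72, 5.16 and 6.74 FPKM in M0, 24.4, 22.8 and 23.8 in M1, and 26.3, 21.7 and 26.5 in M1+PBM, and every activated library was above every M0 library. Arid5a, which stabilises Il6 mRNA against regnase-1, had 0.969, 0.779 and 1.27 FPKM in M0, 5.59, 3.16 and 5.35 in M1, and 4.72, 2.79 and 4.91 in M1+PBM. Their log2 differences from M0 were 1.93 and 1.49 in M1 and 1.99 and 1.34 in M1+PBM, on tables that may have been normalised separately. M1 and M1+PBM overlapped for both genes, with differences of 0.06 and −0.15 (limma, unadjusted p = 0.598 and 0.568).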
